A study of Mus musculus with 5 samples.

Results

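The voltage-gated sodium and calcium channel genes are the genes whose platform symbol names a sodium channel alpha or beta subunit (Scn followed by a number and a or b) or a calcium channel alpha1, alpha2delta, beta or gamma subunit (Cacna, Cacnb or Cacng followed by a number). In the striatal array data, 45 of 26423 probes carried such a symbol. They stood for 37 of the 17778 genes named on the array, each represented by its brightest probe, the probe with the highest mean over the mice. Of these genes, 18 encode pore subunits and 19 encode auxiliary subunits. All 37 symbols were found in RefSeq's GRCm38.p6 gene table. Scn2a, whose probe carries the older symbol Scn2a1, lies outside the naming pattern and is given beside the members.

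Striatum was taken from 5 male FVB mice aged 12 months. All 5 were models of Huntington's disease (HD), with a transgene in which the human ubiquitin promoter drives GFP fused to the first exon of mutant human HTT, carrying 84 CAG repeats. The 3 HD_miR196a mice were bred to hold a further transgene, the miR-196a precursor driven by human ubiquitin sequence too, which the 2 HD mice lacked. Such a promoter is known to be active in many cell types, and the cells that expressed either transgene were not measured here. The labels describe better motor function in the HD_miR196a mice than in the HD mice. There were no mice without the HD transgene among them, so every difference below is one between mice that all carry mutant HTT.

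Sodium channel alpha subunits form the pore that carries the rising phase of the action potential, and beta subunits are single-pass membrane proteins that alter its gating and its position in the membrane. Calcium channel alpha1 subunits form the pores of the L, P/Q, N, R and T currents, which couple voltage to transmitter release, gene regulation and rhythmic firing, while alpha2delta and beta subunits bring the high-voltage-activated pores to the surface and tune them. Most gamma subunits act on AMPA-type glutamate receptors as transmembrane regulatory proteins (TARPs) rather than on calcium channels. In the striatum, Scn4b is known as a gene enriched in medium spiny neurons, the output neurons that are lost in HD, and its protein can act as the blocker behind resurgent sodium current.

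The agent that separates the groups is a single small RNA, shown here so that its seed, the stretch that pairs with target transcripts, can be read. The capitals mark bases 2 to 8 of the mature sequence, which RefSeq (GRCm38.p6) lists identically for both mouse miR-196a genes.
mmu-miR-196a-5p: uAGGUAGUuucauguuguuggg
Whether transcripts of the channel genes hold matches to this seed was not analysed here.

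Shown next are the promoters of 3 members whose brightest probe was higher in every HD_miR196a mouse than in both HD mice. Their values recur below, and a dimmer probe of Cacna1b ran the other way. Each run covers 250 bases before and 50 bases after the gene's start in RefSeq's GRCm38.p6 table, written along the gene's own strand. Capitals mark matches, on either strand, to 5 short motifs. These are TATAAA, known as the TATA box, the CCAAT box, the sequence GGGCGG or GC box, the cyclic AMP response element TGACGTCA (CRE) and the AP-1 site TGANTCA.
Scn4b, chr9:45138374-45138673, plus strand: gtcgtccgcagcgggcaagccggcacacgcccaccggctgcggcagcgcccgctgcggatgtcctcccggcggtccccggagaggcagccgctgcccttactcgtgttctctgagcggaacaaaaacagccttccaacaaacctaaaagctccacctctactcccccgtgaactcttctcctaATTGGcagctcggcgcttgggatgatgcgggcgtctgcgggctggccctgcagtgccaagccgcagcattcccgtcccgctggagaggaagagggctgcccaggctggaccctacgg
Cacng7, chr7:3332575-3332874, plus strand: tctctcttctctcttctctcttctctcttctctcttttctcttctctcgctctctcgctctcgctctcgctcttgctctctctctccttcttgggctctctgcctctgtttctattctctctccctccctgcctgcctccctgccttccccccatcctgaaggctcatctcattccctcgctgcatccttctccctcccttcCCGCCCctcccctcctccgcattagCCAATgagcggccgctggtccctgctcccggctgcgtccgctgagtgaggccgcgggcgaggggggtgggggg
Cacna1b, chr2:24763103-24763402, minus strand: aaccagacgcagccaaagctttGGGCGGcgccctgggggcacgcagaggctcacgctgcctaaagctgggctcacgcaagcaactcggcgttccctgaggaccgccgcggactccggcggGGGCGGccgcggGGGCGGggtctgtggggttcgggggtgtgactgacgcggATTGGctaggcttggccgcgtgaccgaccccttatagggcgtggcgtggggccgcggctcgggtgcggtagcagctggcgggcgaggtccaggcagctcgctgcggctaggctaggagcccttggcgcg
Each of the 3 holds 1 CCAAT match, and none holds a TATA, CRE or AP-1 match. Cacng7 has 1 GC box and Cacna1b has 3, and no matches overlap. Their GC contents were 66.3%, 62.0% and 72.3%. Of the 37 members 29 had a promoter entry, 39 entries in all. A TATA match occurred in 2.56% of the 39 and in 13.6% of all 32851 promoters of that length, a CCAAT match in 25.6% and 37.4%, and a GC box in 41.0% and 35.7%. No member's promoter held the CRE, which 1.79% of all promoters did, and the AP-1 motif was in 2.56% against 7.81%. The median GC content was 54.7% over 18 pore promoters, 62.0% over 21 auxiliary promoters and 52.7% over all. These are matches of letters in short windows and say nothing of binding.

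Deposited medians ranged from 160.0 to 185.6 between mice and were higher in both HD mice than in the HD_miR196a mice, and quantile normalization removed that difference. All levels below are log2 values after this normalization, with intensities under 1 set to 1. A level also depends on how well a probe binds, so levels of different genes were not ranked. As a gauge of background, the 95th percentile of 543 olfactory receptor probes, whose genes are mostly silent in striatum, was 8.31. All differences are HD_miR196a minus HD on the log2 scale, from limma fitted to all 26423 probes with Benjamini-Hochberg adjustment. Nothing says whether the mice came from separate litters.

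Most channel genes were measured above background in striatum, and no member differed between the groups beyond the threshold. Above the olfactory receptor percentile were 21 of the 37 members, 10 of 18 pore and 11 of 19 auxiliary genes. That is 56.8%, beside 48.8% of all named genes by their brightest probe and 39.6% of all probes. Limma called 0 members at an adjusted p under 0.05 (lowest adjusted p = 0.979), as it called 0 of all probes, a background of 0%. Differences were smaller than 0.3 for 33 of the 37. In 22 members the mean was higher in HD_miR196a mice and in 15 lower, with a median of 0.02, against a median of -0.00 over all probes. With median centring the split was 19 higher and 18 lower. Without scaling, where all probes shifted by a median of -0.20, it was 6 higher and 31 lower, or 20 members above that median. Without HD mouse 1 it was 16 higher and 21 lower. Of the 21 members above background, the sodium channel beta subunit gene Scn4b had the largest difference.

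**Figure D1:**
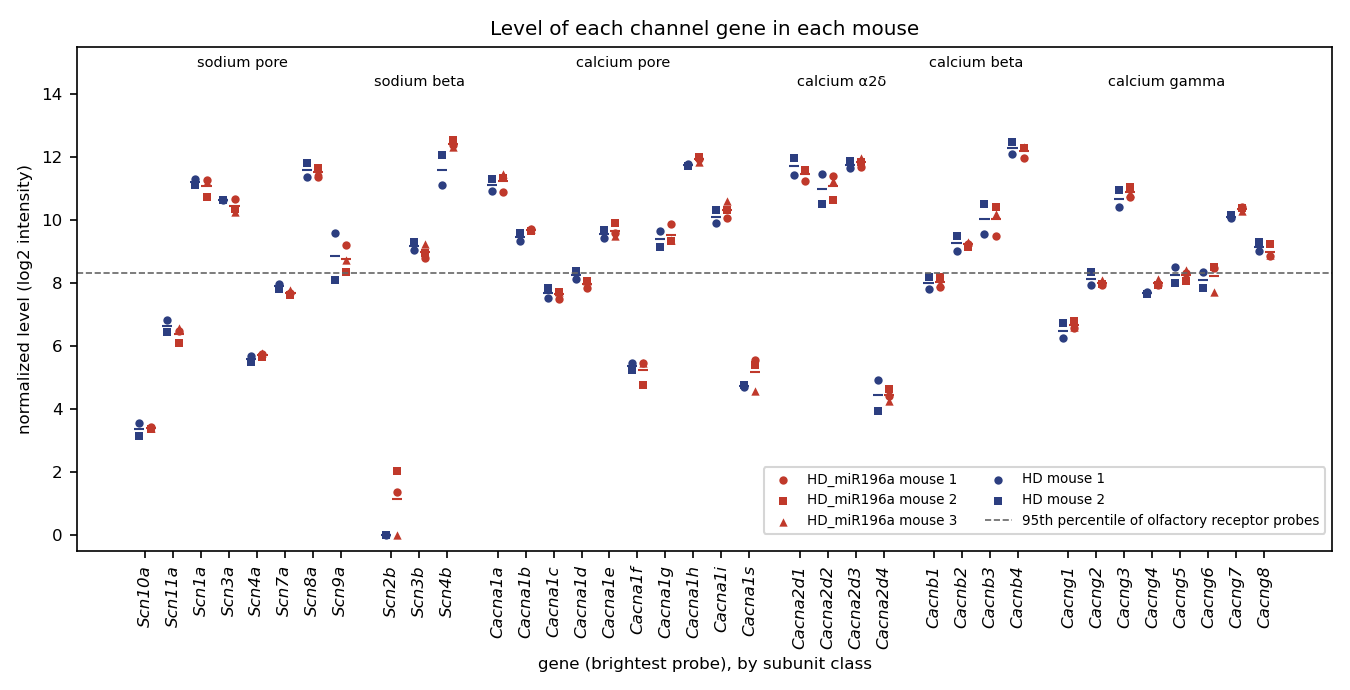
Normalized log2 intensity (y axis) of each of the 37 channel genes (x axis, by subunit class) in each of the 5 mice, with short lines for the group means. The dashed line at 8.31 is the 95th percentile of olfactory receptor probes, and Scn4b is the gene whose HD mouse 1 sits farthest below the other mice.

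An unadjusted p under 0.05 was found for 3 of the 37 members, 8.11%, beside 4.16% of all probes. All 3 were auxiliary subunits that were higher in HD_miR196a mice, Scn4b, Cacng4 and Cacng7, where 2.11% of all probes were in that direction. Without HD mouse 1 the differences of Scn4b, Cacng4 and Cacng7 were 0.35, 0.36 and 0.21, and without HD mouse 2 they were 1.31, 0.29 and 0.31. Without mouse 1 of each group they were 0.38, 0.39 and 0.17. Each of these fits has 1 HD mouse, so only the sizes are given. With median centring the only member under 0.05 was Cacng4, beside 4.09% of all probes. Without scaling the members under 0.05 were Cacna1d, Scn3a and Scn7a, beside 13.8% of all probes. The values of the groups did not overlap for 7 members, 18.9%, beside 20.3% of all probes, which is a share near the background. Of these, 5 were higher in HD_miR196a mice (Scn4b, Cacng4, Cacng7, Cacna1b and Cacna1h, background 9.96%) and 2 were lower (Cacna1d and Scn7a, background 10.3%). With median centring 10 members did not overlap, 7 higher and 3 lower, beside 21.9% of all probes. Without scaling it was 7 members, 1 higher and 6 lower, beside 39.8%. In the deposited intensities Cacng4 kept its separation, while Scn4b, Cacng7, Cacna1b and Cacna1h overlapped.

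**Figure D2:**
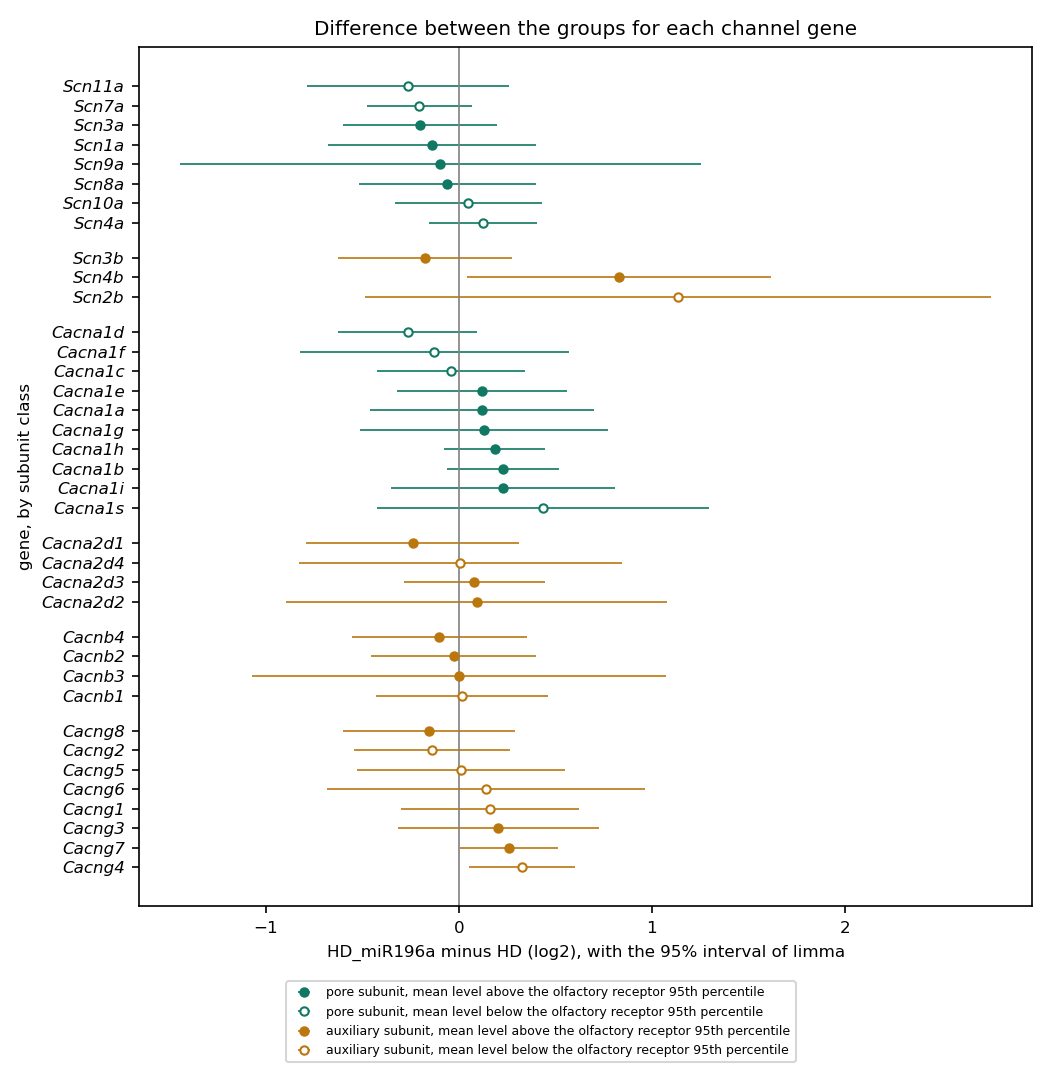
Difference between the groups (x axis, HD_miR196a minus HD on the log2 scale, with the 95% interval of limma) for each channel gene, pore subunits in green and auxiliary subunits in orange. Open circles are genes below the olfactory receptor percentile, and the intervals of Scn4b, Cacng4 and Cacng7 lie above 0 before adjustment for the number of probes.

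Scn4b measured 12.37, 12.54 and 12.34 in the HD_miR196a mice, numbered 1 to 3, against 11.11 in HD mouse 1 and 12.06 in HD mouse 2. All HD_miR196a mice were above both HD mice, and HD mouse 1 stood lowest by a wide margin. The group means were 12.42 ± 0.11 (SD, n = 3) and 11.58 ± 0.67 (SD, n = 2), a difference of 0.83 ± 0.30 (SE, 95% interval 0.04 to 1.62, limma adjusted p = 0.979). The exact two-sided permutation test over the mice gave p = 0.1, the smallest that its 10 splits allow. Leaving out HD mouse 1 brought the difference to 0.35, and leaving out HD mouse 2 to 1.31. Without scaling it was 0.59. The deposited intensities were 4574, 5586 and 5133 against 2415 and 4715, so before normalization HD mouse 2 lay just above HD_miR196a mouse 1 and the groups overlapped.

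Markers of medium spiny neurons were also often lowest in HD mouse 1. Of the 10 other markers on the list that were measured, 8 were higher in HD_miR196a mice and 7 had their lowest value in HD mouse 1, and 9 lay above the olfactory receptor percentile. An unadjusted p under 0.05 was found for 6 of them, beside 4.16% of all probes, and limma called 0. The list was chosen with earlier results of these data known, so this share is not independent of the values. Their level, as a mean over the list with Drd2 included, was 11.59, 11.51 and 11.34 in the HD_miR196a group against 11.02 and 11.41 in the HD group. This mean overlapped between the groups, since HD mouse 2 lay above HD_miR196a mouse 3. It takes in Drd2 near the floor, at 1.64 in HD mouse 2 and 0 in HD_miR196a mouse 3. Drd1, Pde10a, Pde1b, Penk, Ppp1r1b and Rgs9 were each higher in every HD_miR196a mouse than in both HD mice. Such a separation was found for 9.96% of all probes. Bcl11b, Foxp1, Tac1 and Drd2 overlapped. In the deposited intensities, before normalization, Drd1, Pde10a, Pde1b and Ppp1r1b overlapped between the groups too, while Penk and Rgs9 kept their separation. Ppp1r1b, which encodes DARPP-32, measured 10.96 in HD mouse 1 and 11.39 to 11.74 in the other mice. For Drd2 no mouse exceeded 2.04, close to the floor. The part of the marker shift in the Scn4b difference was not tested, and in bulk tissue fewer cells of a type and less RNA per cell cannot be told apart.

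**Figure D3:**
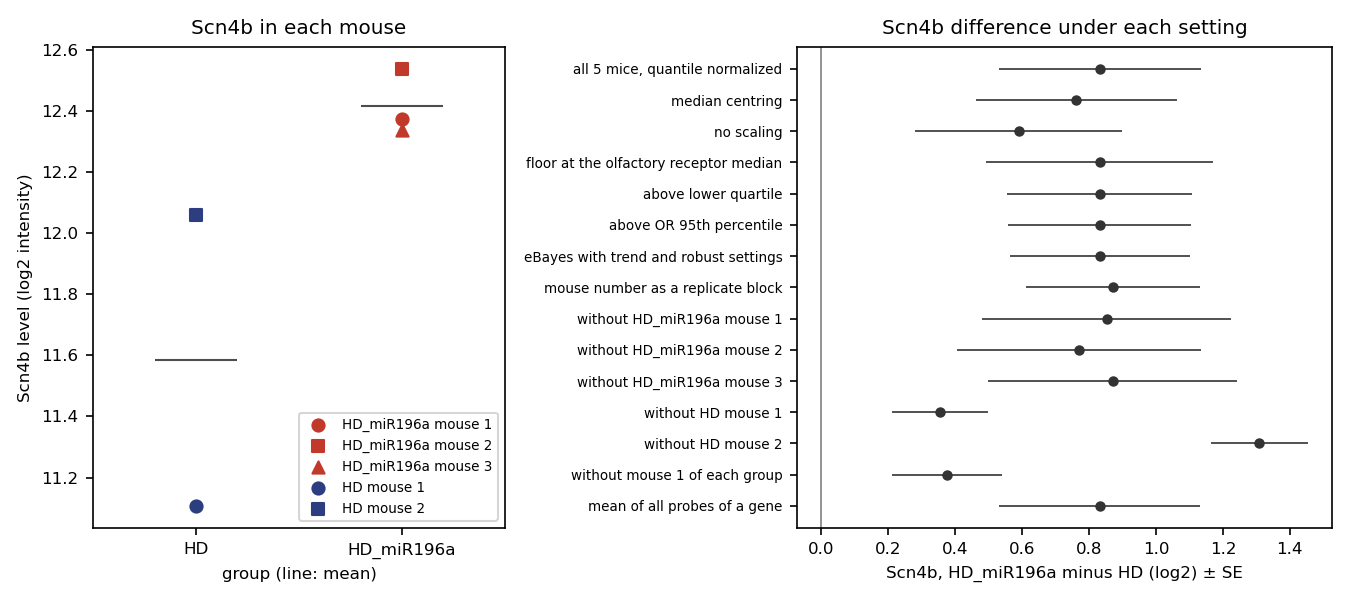
Left, Scn4b level (log2 intensity) in each mouse with lines for group means; right, its difference between the groups (log2, ± SE of limma) with all mice and under each alternative setting. The difference stayed above 0 in every setting shown and was lowest when HD mouse 1 was left out (0.35) and highest when HD mouse 2 was (1.31). The floor, the filters, the eBayes settings and the mean of all probes could not move it from 0.83. The mouse block and leaving out HD_miR196a mouse 3 gave the same 0.87.

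Scn3b, which encodes another beta subunit of neuronal sodium channels, measured 8.81, 8.95 and 9.24 in HD_miR196a mice and 9.05 and 9.30 in HD mice. Its groups overlapped, and the difference was -0.17 ± 0.17 (SE). For Scn2b, the neighbour of Scn4b in the genome, the probe gave deposited values of 2.50, 3.99 and -3.02 against -0.48 and -0.56, all at background. No fold can be given for it, and its fitted difference depends on the floor.

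Sodium pore genes had 6 of 8 means lower in HD_miR196a mice, with differences from -0.26 to 0.13 and a median of -0.12, and none passed the threshold. Of the 8, 4 were above background: Scn1a, Scn3a, Scn8a and Scn9a. Scn1a, the main pore of fast-spiking interneurons, measured 11.28, 10.72 and 11.21 in HD_miR196a mice and 11.31 and 11.11 in HD mice, and the groups overlapped (-0.14 ± 0.21, SE). Scn8a, the pore concentrated at the initial segment of axons, measured 11.37, 11.65 and 11.56 against 11.37 and 11.80, and the 95% interval ran from -0.52 to 0.40. Scn3a, best known from the embryonic brain, measured 10.68, 10.36 and 10.27 against 10.63 and 10.65. Only HD_miR196a mouse 1 kept it from a separation of the groups (-0.20 ± 0.15, SE). Its second, dimmer probe differed by -0.03 ± 0.23.

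Scn9a was the pore gene that varied most between mice. It measured 9.20, 8.35 and 8.73 in HD_miR196a mice and 9.60 and 8.11 in HD mice, so that the highest and the lowest value both came from the HD group. Its difference was -0.10 ± 0.52 (SE), and it turned to 0.65 without HD mouse 1 and to -0.84 without HD mouse 2. Scn9a encodes a pore known from sensory, sympathetic and hypothalamic neurons. Beside the members, Scn2a, the pore of unmyelinated axons, measured 11.87, 12.05 and 12.10 against 11.86 and 12.13. The HD_miR196a values all lay between those of the HD mice.

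Scn7a, which encodes a sodium sensor that is hardly gated by voltage and is known from glia, had groups that did not overlap. It measured 7.67, 7.62 and 7.78 in HD_miR196a mice and 7.96 and 7.82 in HD mice, below the olfactory receptor percentile. The difference was -0.21 ± 0.10 (SE). The pores of muscle and of sensory neurons were also below background: Scn4a had a mean of 5.67, Scn10a 3.38 and Scn11a 6.48.

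Calcium pore genes had 7 of 10 means higher in HD_miR196a mice, with a median of 0.13, and none passed the threshold. Among the high-voltage-activated pores, Cacna1b, the N-type channel of nerve terminals, measured 9.71, 9.66 and 9.73 in HD_miR196a mice and 9.35 and 9.59 in HD mice. The groups did not overlap, with a difference of 0.23 ± 0.11 (SE) that became -0.01 without scaling, or 0.19 relative to all probes. A dimmer second probe of Cacna1b at 6.15 on average ran the other way, with no overlap between groups that averaged 6.05 and 6.30 (-0.25 ± 0.11, SE), so the direction of this gene was not settled. With the mean of both probes its difference was -0.01.

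Cacna1a, the P/Q-type channel that triggers fast transmitter release, measured 10.90, 11.34 and 11.48 against 10.94 and 11.30. Both mice numbered 1 were low, and the groups overlapped (0.12 ± 0.22, SE). Cacna1e, the R-type channel, measured 9.61, 9.90 and 9.50 against 9.42 and 9.68 (0.12 ± 0.17, SE), again with overlap. The L-type pores Cacna1c and Cacna1d lay below the olfactory receptor percentile at 7.66 and 8.09. Cacna1d, the L-type channel that opens at lower voltage and is known from medium spiny neurons, measured 7.83, 8.07 and 8.06 in HD_miR196a mice and 8.12 and 8.38 in HD mice. Its groups were separated by a narrow margin, with a difference of -0.27 ± 0.14 (SE).

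The T-type pores, which open near rest and support burst firing, were all above background. Cacna1h measured 11.95, 12.00 and 11.84 in HD_miR196a mice and 11.79 and 11.71 in HD mice. The groups did not overlap, and the difference of 0.19 ± 0.10 (SE) was -0.06 without scaling, or 0.14 relative to all probes. Cacna1i measured 10.05, 10.33 and 10.61 against 9.90 and 10.31 (0.23 ± 0.22, SE), with both mice numbered 1 at the low end. Cacna1g went the other way between mice, with 9.88, 9.35 and 9.38 against 9.65 and 9.15, so both mice numbered 1 were at the high end (0.13 ± 0.25, SE). Cacna1f, the pore of photoreceptors, and Cacna1s, the pore of skeletal muscle, lay within the range of olfactory receptor probes. Their differences were -0.13 and 0.44 ± 0.33 (SE), the latter with overlap.

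Alpha2delta genes had a median range between mice of 0.84, beside 0.53 over all members and 0.40 over the brightest probes of all named genes. The ranges were 0.73 for Cacna2d1, 0.95 for Cacna2d2, 0.35 for Cacna2d3 and 0.97 for Cacna2d4, the last below background. Of the 4, 3 had means higher in HD_miR196a mice by less than 0.1. Cacna2d1, a receptor for gabapentin, measured 11.23, 11.58 and 11.58 in HD_miR196a mice and 11.44 and 11.96 in HD mice, a difference of -0.24 ± 0.21 (SE) with overlap. Cacna2d2, also a gabapentin receptor, measured 11.39, 10.63 and 11.23 against 11.47 and 10.52. The highest and lowest values again came from the HD mice, and the difference was 0.09 ± 0.38 (SE). A second probe of Cacna2d2 had its mice in nearly the same order, at 10.69, 10.08 and 10.33 against 10.62 and 9.96. Cacna2d3 measured 11.69, 11.83 and 11.99 against 11.64 and 11.88 (0.08 ± 0.14, SE). Cacna2d4, known from the retina, was below background with a mean of 4.43.

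Among the beta subunit genes, which encode cytoplasmic partners of the pore, Cacnb4 measured 11.97, 12.28 and 12.31 in HD_miR196a mice and 12.11 and 12.47 in HD mice (-0.10 ± 0.17, SE). Cacnb3 measured 9.50, 10.43 and 10.19 against 9.57 and 10.52. Its group means were equal to 2 decimals, at 10.04 ± 0.48 (SD, n = 3) and 10.04 ± 0.67 (SD, n = 2), while both mice numbered 1 were lower than every other mouse by 0.63 or more. Cacnb2 measured 9.24, 9.15 and 9.30 against 9.03 and 9.48, with overlap. Cacnb1, whose protein is best known from muscle, stayed below the percentile on all 3 of its probes, the brightest at 8.02.

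Gamma subunit genes had 6 of 8 means higher in HD_miR196a mice and a median of 0.15. Cacng7, a TARP, measured 10.43, 10.38 and 10.30 in HD_miR196a mice and 10.05 and 10.16 in HD mice. The groups did not overlap, and the difference was 0.26 ± 0.10 (SE, 95% interval 0.00 to 0.52, limma adjusted p = 0.979), which fell to 0.17 without mouse 1 of each group and to 0.02 without scaling, or 0.22 relative to all probes. Cacng4, a TARP with a known role in the developing brain and in glia, measured 7.95, 7.95 and 8.12 against 7.71 and 7.65. Its difference of 0.33 ± 0.10 (SE, limma adjusted p = 0.979) kept its direction under all alternatives it was fitted in, from 0.15 without scaling to 0.39 without mouse 1 of each group, at a mean level of 7.88 that is below the olfactory receptor percentile.

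The other gamma genes overlapped between the groups. Cacng3, a TARP of cortical neurons, measured 10.74, 11.04 and 10.86 in HD_miR196a mice and 10.41 and 10.94 in HD mice (0.20 ± 0.20, SE), and its second probe differed by 0.02 ± 0.29. Cacng8, a TARP abundant in hippocampus, measured 8.86, 9.23 and 8.89 against 9.01 and 9.29 (-0.15 ± 0.17, SE). Cacng2, which encodes stargazin, Cacng5 and Cacng6 were just under the percentile, at 8.06, 8.27 and 8.18, with differences of -0.14, 0.01 and 0.14. Cacng1, the gamma subunit of skeletal muscle, had a mean of 6.59.

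Set against each other, pore and auxiliary genes had median differences of 0.00 over 18 genes and 0.02 over 19 genes, beside -0.00 over all probes. Means were higher in HD_miR196a mice for 9 of 18 pore and 13 of 19 auxiliary genes. Without HD mouse 1 these counts were 8 and 8, and without scaling 1 and 5, or 9 and 11 relative to the median of all probes. Differences ran from -0.27 to 0.44 for the pore genes and from -0.24 to 1.14 for the auxiliary genes, the highest of each being a gene at background, Cacna1s and Scn2b. For members above background the medians were 0.12 over 10 pore genes and 0.00 over 11 auxiliary genes. The groups did not overlap for 4 pore genes, 2 in each direction, and for 3 auxiliary genes, all higher. These are 22.2% and 15.8%, both near the 20.3% of all probes. The median level over the pore genes was 9.40, 8.85 and 9.05 in the HD_miR196a mice against 9.38 and 8.77 in the HD mice, and over the auxiliary genes 8.86, 9.15 and 9.24 against 9.03 and 9.30, so both classes overlapped between the groups. The shares above background were 55.6% and 57.9%. Whether the roles differ was not tested. Among the pores, 2 of 8 sodium and 7 of 10 calcium genes had higher means, and this contrast was not tested.

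Another pattern lay in the order of the mice. In 8 of the 21 members above background, 38.1%, both mice numbered 1 lay below all 3 other mice: Cacnb3, Cacna1a, Cacna1i, Cacng3, Cacna2d1, Cacnb4, Scn8a and Cacna2d3. Among all 8667 genes above background the share was 16.3%. In 4 members, 19.0%, they lay above all others (Scn9a, Cacna2d2, Cacna1g and Scn1a), beside 19.6% of all such genes. The means of the mice numbered 1 differed from those of the other mice by -0.85 for Cacnb3, by -0.45 for Cacna1a, by 0.63 for Cacna2d2 and by 1.01 for Scn9a. This order was picked out after the values were seen, and no test was made of it.

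Markers of cortical projection neurons, the cells above the striatum, had the same order of mice. Both mice numbered 1 were lowest for 8 of the 11 markers measured, 10 of them above background. The mean over the list was 8.88, 10.67 and 10.44 for the HD_miR196a mice against 9.24 and 10.86 for the HD mice. Slc17a7, the vesicular glutamate transporter that defines these neurons, was at 8.47 and 8.82 in the mice numbered 1 and at 11.05 to 11.87 in the others, and no marker was at the floor. Striatal interneuron markers had list means of 10.27, 9.71 and 10.12 against 10.18 and 9.66, and thalamic markers 9.23, 8.69 and 9.22 against 9.22 and 8.70, so both means were low in the mice numbered 2. Single markers of these lists did not all follow: Slc17a6 of the thalamic list was at 9.70 and 9.79 there and at 10.96 to 11.58 in the others, while Sst of the interneuron list was at 15.12 and 15.21 there and at 14.76 and 14.74 in the mice numbered 1. The part of these cell types in the channel values was not tested. Without the mice numbered 1 the difference of Cacnb3 was -0.20, of Scn9a 0.43, of Cacna2d2 0.41 and of Cacna1a 0.11.

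**Figure D4:**
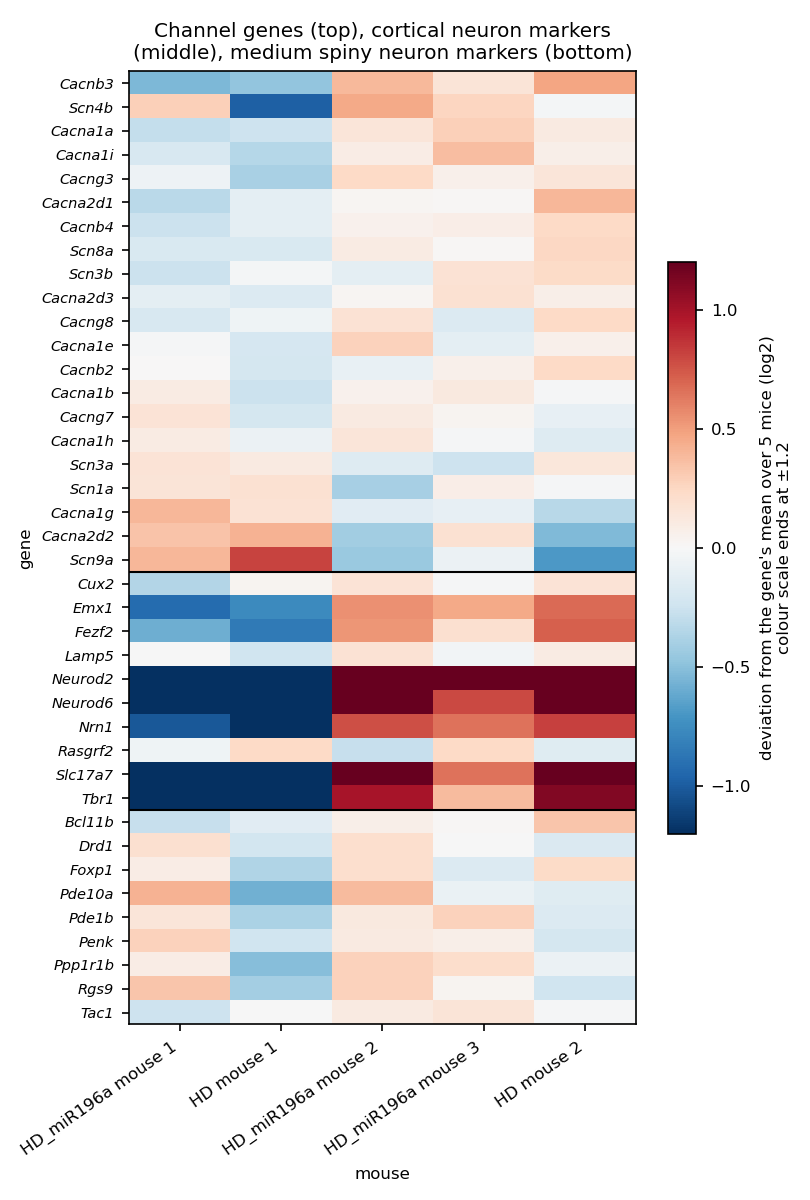
Deviation of each gene from its own mean over the 5 mice (log2, colour) for the 21 channel genes above background, 10 cortical neuron markers and 9 medium spiny neuron markers (rows), with mouse 1 of each group in the left columns. Cacnb3, Cacna1a and Cacna1i are blue in the same 2 mice as most cortical markers, Scn9a and Cacna2d2 are red there, and Scn4b is dark blue in HD mouse 1. Red marks values above the mean and blue those below.

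Several members are neighbours in RefSeq's gene order, with no other protein-coding gene between them, and some of these runs had differences of 1 sign and some of both. In the run of Cacng7, Cacng8 and Cacng6 the differences were 0.26, -0.15 and 0.14, and in that of Cacng1, Cacng4 and Cacng5 they were 0.16, 0.33 and 0.01. Scn1a, Scn9a and Scn7a, also adjacent, differed by -0.14, -0.10 and -0.21, and Scn9a varied most between mice. Of the adjacent Scn2b and Scn4b, only Scn4b can be given a direction, higher in HD_miR196a mice, since Scn2b was at the floor. Scn10a and Scn11a, both below background, differed by 0.05 and -0.26. Of the 7 members with more than 1 probe, Cacna1b was the one whose brightest and second probe both separated the groups, in opposite directions.

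Genes that anchor, modulate or work with these channels formed a list of 41 genes. Of these, 35 were measured and 24 were above background, with 21 higher and 14 lower, a median difference of 0.01 and 0 called. Only Fgf11, an intracellular fibroblast growth factor that binds sodium channels, had an unadjusted p under 0.05, at a background level of 6.35. Of the 35, 4 had groups that did not overlap, 11.4%, beside 20.3% of all probes. Ank3, the ankyrin that holds sodium channels at the axon initial segment, measured 13.52, 13.38 and 13.38 in HD_miR196a mice and 13.32 and 13.28 in HD mice, a difference of 0.13 ± 0.10 (SE). Fgf11 was higher as well, by 0.30 ± 0.11, while Stx1a, a syntaxin of the release machinery, and the protocadherin gene Pcdh15 were below background and lower, at -0.28 ± 0.11 and -0.34 ± 0.16.

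Marker lists of the remaining cell types gave median differences of 0.28 for oligodendrocytes, with 7 of 7 markers higher, 0.23 for their precursors, -0.03 for astrocytes (in HD mouse 1 the Slc1a3 probe gave no signal, against 12.57 to 13.72 for the other mice), 0.06 for microglia and 0.07 for endothelium. For interneurons the median was 0.04, for thalamus -0.00 and for cortical neurons 0.07. Without mouse 1 of each group these were 0.19, 0.02 and -0.36, so the cortical median changed sign. Skeletal muscle markers differed by -0.08, retinal markers by 0.21 and sensory neuron markers by -0.04. Of these only 2 of 4, 1 of 3 and 0 of 3 measured markers lay above the olfactory receptor percentile. Pvalb, by the same probe, is in both the muscle and the interneuron list. Over the 10 spiny neuron markers other than Scn4b the median was 0.35, and 0.28 without mouse 1 of each group. Of the defining genes of striatum, Penk was at 14.73 to 15.25 and Drd1 at 12.69 to 13.11 in the 5 mice, while the Drd2 probe stayed close to the floor. Ckm of skeletal muscle had a mean of 3.36.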

How the data were processed

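The authors hybridised amplified, Cy5-labelled striatal RNA of each mouse to single-colour arrays in 2 technical repeats and combined them, per the labels' protocols. The deposited values are linear intensity per probe, 1 column per mouse. Scanner, software and scaling were not given in the sources used here. Between 312 and 370 values per array were below 1.

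Here the intensities were quantile normalized, floored at 1 and log2 transformed, and limma 3.58.1 in R 4.3.3 (lmFit, eBayes) was fitted to all 26423 probes, with two-sided tests and a Benjamini-Hochberg threshold of 0.05. The number of arrays limits the precision. Symbols came from the platform annotation (20377 probes with a symbol, 6046 without), with the brightest probe kept per gene. Every member is named, and the promoters shown belong to 3 members whose groups did not overlap. The members and lists were chosen with earlier results of these data known. The fit was tested on simulated data. Alternatives changed scaling, floor, filter, eBayes settings, mouse block, probes and mice.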

Additional observations from a re-analysis of the deposited data

How the results depend on the processing

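No member was called in any setting. Over all probes the count called went from 0 to 4 with a floor set to the median of olfactory receptor probes, to 1 among the 19817 probes above the lower quartile of level, and to 3 with trended, robust eBayes. With each mouse left out in turn it ranged from 0 to 3, with 3 both without HD mouse 1 and without HD mouse 2, and the cause was not tested. The Scn4b difference ran from 0.35 to 1.31, always above 0, with adjusted p from 0.404 to 1. The median difference ran from -0.17 (no scaling) to 0.12 for pore and from -0.17 (no scaling) to 0.20 for auxiliary genes. Of 483 values of single members, 422 kept direction and side of the threshold and 61 changed sign without a call in either fit. The filters and the eBayes settings cannot change the difference of a member, and the floor cannot change that of a bright gene such as Scn4b. Part of the 422 was therefore fixed in advance, and the count does not measure how stable the directions are. Scn4b and 10 other members never changed sign.

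Mouse numbers are not known to pair the mice. Across probes, the deviations of mice numbered 1 correlated at 0.236 and of mice numbered 2 at 0.17. The deviations of the 2 HD mice mirror each other, so HD_miR196a mouse 1 correlated with HD mouse 2 at -0.236. The values for numbers 1 and 2 are therefore not separate observations. With the replicate block the Scn4b difference was 0.87 (limma adjusted p = 0.601), the pore median -0.03, the auxiliary median 0.02, and 0 probes were called. Single spots, the 2 technical repeats and signal-over-background flags were not analysed here, and 2 HD mice limit every interval.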
